A study of Homo sapiens with 4 samples.

Results

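The cytosolic ribosomal protein genes encode the protein part of the ribosomes that translate cytoplasmic messenger RNA. Here they were taken by gene symbol, as RPL or RPS followed by a number, with RPSA, RPLP0, RPLP1 and RPLP2 added. On chromosomes 1 to 22 and X, 85 of 19970 protein-coding genes met this rule. The rule reads the symbol and the chromosome alone. Of the 85 genes, 77 are the main genes, 46 of the large and 31 of the small ribosomal subunit, and 8 are paralog copies, recognised by L or L1 after the number.

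Chromatin of MHCC97L cells, an established human hepatocellular carcinoma line labelled as wild type and left untreated, was mapped by chromatin immunoprecipitation and sequencing. Culture was at 37 °C under 5% CO2, in medium holding 10% fetal bovine serum. Trimethylation of histone H3 at lysine 4 (H3K4me3), which marks promoters, acetylation at lysine 27 (H3K27ac), which marks active promoters and enhancers, and monomethylation at lysine 4 (H3K4me1), which marks enhancers and promoter flanks, had 1 library each. An input library, the 4th sample, was not analysed here. There were no replicates, so the values describe 3 libraries and no test of a difference could be made.

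Ribosomal protein genes are transcribed by RNA polymerase II at high rates in growing cells, and most of their products are needed in equal numbers. Most of their messenger RNAs begin with a 5′ terminal oligopyrimidine tract, called TOP, a cytosine followed by a run of pyrimidines. Through this tract the mTOR kinase and the RNA-binding protein LARP1 control their translation.

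The deposited lists give peak summits, of which 46078 for H3K4me3, 70028 for H3K27ac and 86366 for H3K4me1 fell on these chromosomes. Each summit carries the authors' score, −log10 of either the p-value or the q-value. It ranks summits inside 1 list, and scores of different marks are on scales of their own. No peak name was repeated, so each peak had 1 summit, and a wide peak is seen here only at its highest point. A gene was called marked if any summit fell no more than 1000 bp from one of its boundaries, and as carrying the pair when H3K4me3 and H3K27ac lay within 1000 bp of the same boundary. Of 12 liver genes used to check the label, 4 had the pair (33.3%), among them HNF4A, FGA and TF, which is below the 47.4% of all protein-coding genes, and ALB, APOA2, TTR and GPC3 had neither mark in the gene. Of 4 epithelial genes KRT8 and KRT18 had the pair and EPCAM had neither mark in the gene. Of 5 genes of other cell types 1 had the pair, CD68 of macrophages. Over the whole gene 3 of these 5 held both marks, namely CD68, PECAM1 and PTPRC. The same was seen in 6 of the 12 liver genes, 3 of the 4 epithelial genes and 61.2% of all genes.

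Nearly all ribosomal protein genes carried promoter marks, with H3K27ac more complete than H3K4me3. H3K27ac was found at a boundary of 83 of 85 genes (97.6%, 95% Wilson interval 91.8 to 99.4), against 54.1% of all protein-coding genes. H3K4me3 was found at 78 (91.8%, 84.0 to 95.95), against 56.8% of all. The pair marked 74 (87.1%, 78.3 to 92.6), against 47.4% of all, and 83 held both marks once the whole gene body was searched, against 61.2% of all. The intervals cover counting error only.

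For H3K4me3 and H3K27ac most marked members scored above the median of marked genes, and for H3K4me1 they did not. The median best H3K4me3 score was 71.1 over 78 members, against 52.1 over the 11340 marked protein-coding genes. Of the 78, 61 lay above that median and 23 lay above 84.2, the 90th percentile. The median best H3K27ac score was 50.8 over 83 members, against 30.1 over the 10806 marked protein-coding genes, and 70 of the 83 lay above 30.1. For H3K4me1 the median was 4.58 over 19 members, against 4.75 over the 2486 marked protein-coding genes, with 9 of the 19 above that value. The spread was wide, from 3.47 to 134 for H3K4me3 and from 7.53 to 129 for H3K27ac.

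**Figure D1:**
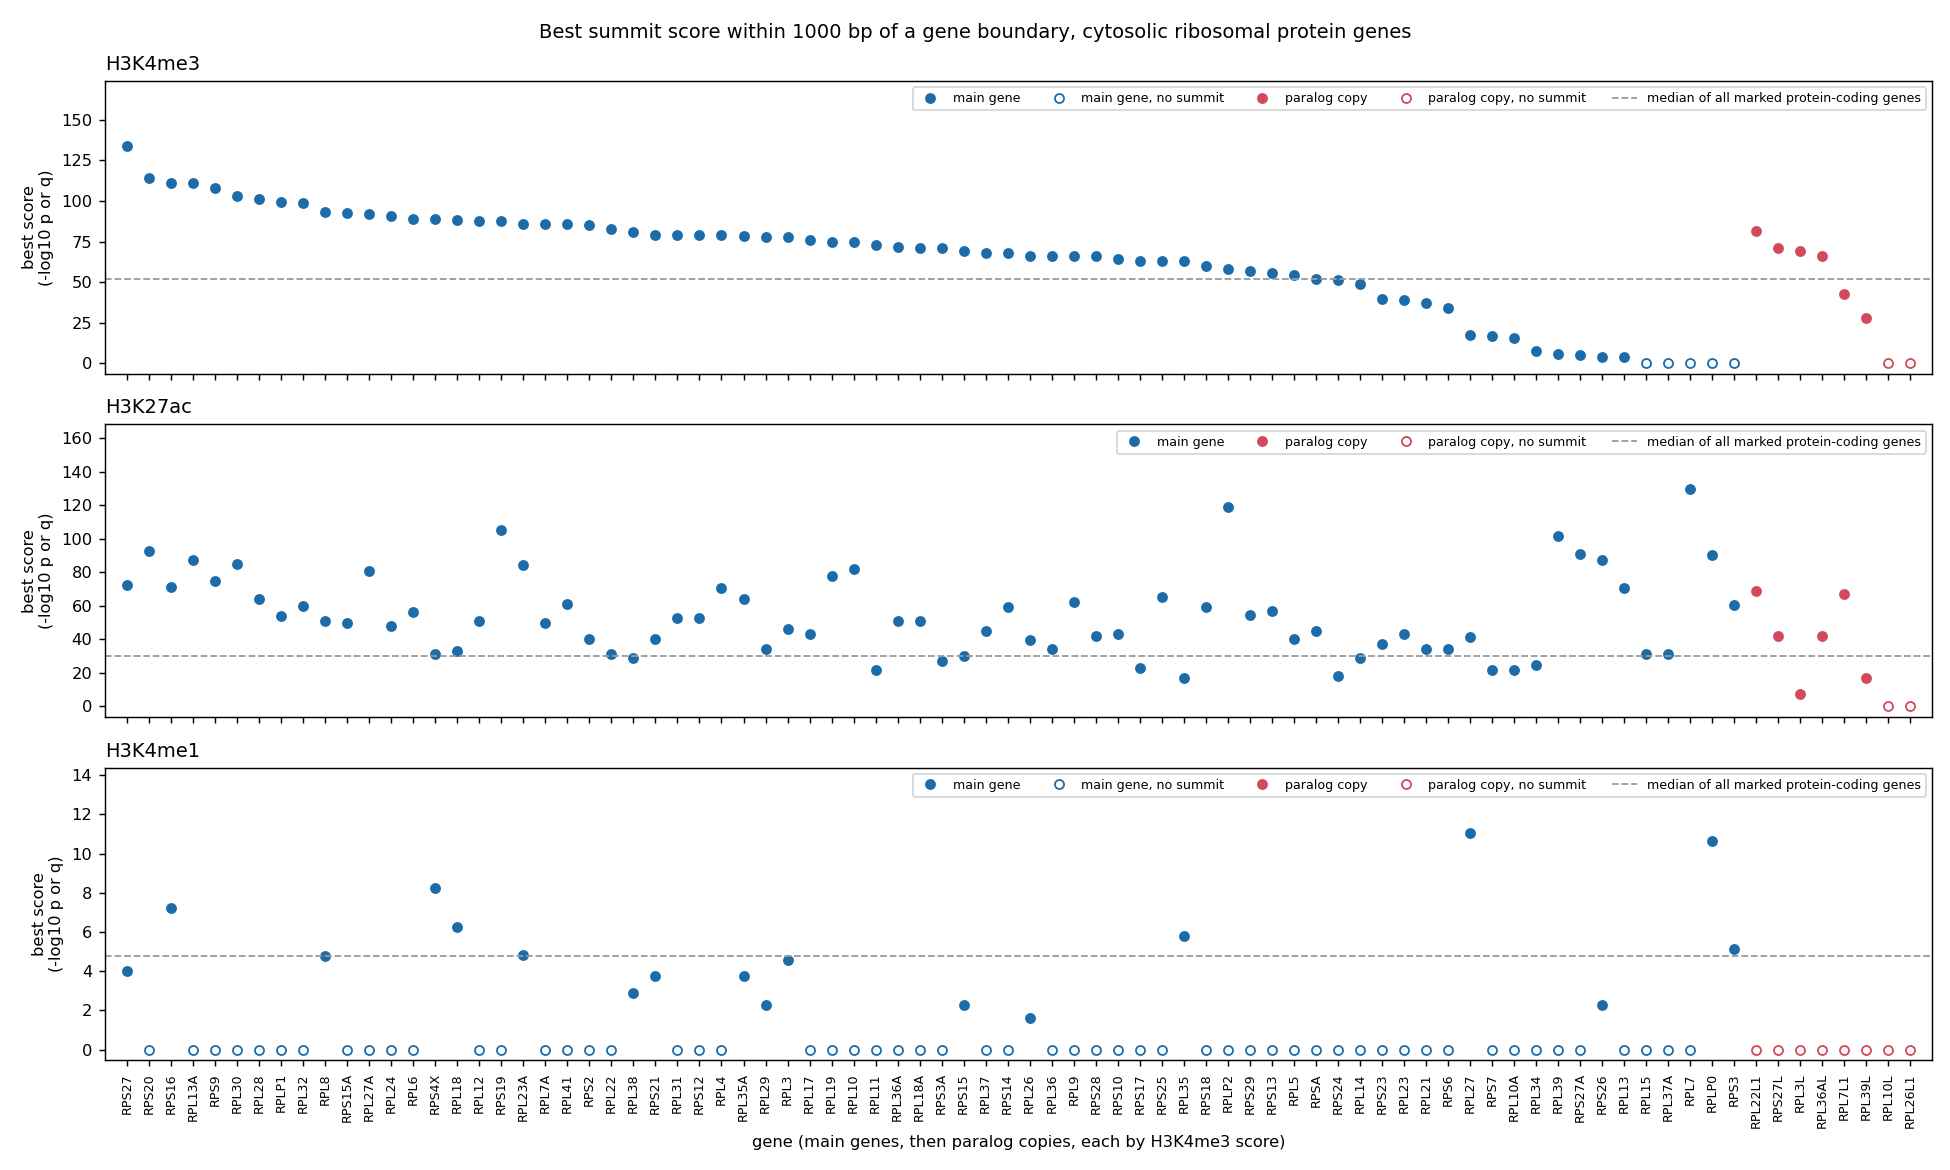
Best summit score (−log10 of p or q, as deposited) within 1000 bp of a boundary for 82 of the 85 genes, 1 panel per mark, with main genes left of the 8 paralog copies and open circles for genes with no summit. H3K27ac points are filled for every main gene, H3K4me3 falls away in a tail of low values at its right end, and the dashed line is the median of all marked protein-coding genes, 52.1, 30.1 and 4.75 from top to bottom.

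RPS27, a zinc-binding protein of the small subunit at chr1:153990762-153992155, had the highest H3K4me3 score, 134, the 7th highest of 11340 marked genes. Its H3K27ac score was 72.5, and because the gene is 1394 bp long the same H3K4me3 summit lay within 1000 bp of both ends. RPS27 shares its boundary windows with RAB13 and NUP210L. RPS20 followed with 114, RPS16 with 111, RPL13A with 111 and RPS9 with 108. H3K27ac reached 92.5 in RPS20, 71.1 in RPS16, 87.5 in RPL13A and 74.7 in RPS9, so these 4 genes stood above the median of marked genes for both marks. RPL30, RPL28, RPLP1 and RPL32 were also among the highest 10 members, between 98.8 and 103. For H3K27ac the highest member was RPL7 with 129, the 50th highest of 10806 marked genes. It shares a boundary window with RDH10, and its only strong H3K4me3 summit, scored 111, lay 1007 bp from a boundary and fell just outside the window. RPLP2 (119, near PIDD1), RPS19 (105) and RPL39 (102) were also among the highest 10. So were RPS20 (92.5), RPS27A (91.0, near CLHC1), RPLP0 (90.3), RPL13A (87.5) and RPS26 (87.1).

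The order of the genes differed between the marks. Over the 78 members with both marks at a boundary the rank correlation of the best scores was 0.34, against 0.43 over 9562 protein-coding genes. These are scores within 1000 bp of a boundary, and some members had a stronger H3K4me3 summit further inside the gene. All points share the same 2 libraries, and genes are not independent replicates. The lowest H3K27ac scores of main genes belonged to RPL35 (16.7), RPS24 (18.1), RPL11, RPL10A and RPS7 (21.9 each), and the copies RPL3L (7.53) and RPL39L (16.7) were as low or lower.

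RPLP0, which encodes the base of the ribosomal stalk, stood apart from the other main genes. It had no H3K4me3 summit in the gene (chr12:120196699-120201111) or within 1000 bp of it. The nearest one, scored 105, lay 2523 bp beyond the end opposite to its start. H3K27ac was strong at its start, with 90.3 at 174 bp downstream of the start and 84.2 at 602 bp upstream. H3K4me1 reached 10.6 at the other end of the gene. The other stalk genes both had the pair, RPLP1 with 99.5 for H3K4me3 and 54.0 for H3K27ac, and RPLP2 with 58.1 and 119.

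Low or missing H3K4me3 values at a boundary went with a strong summit further inside the gene. Besides RPLP0, 4 main genes had no H3K4me3 within 1000 bp. They were RPL7 (1007 bp away), RPS3 (1051 bp, score 84.0), RPL37A (1333 bp, 54.9) and RPL15 (1406 bp, 54.4). RPS3 lies at the messenger entry of the small subunit. The nearest summits just inside the limit were those of RPL39 at 912 bp and RPS9 at 911 bp. The 5 lowest boundary scores were those of RPL13 (3.47), RPS26 (3.97), RPS27A (4.76), RPL39 (5.71) and RPL34 (7.29). Inside the gene the same 5 genes reached 58.6, 92.7, 94.3, 83.6 and 62.9. Their low values are thus minor summits near a boundary, with the main H3K4me3 summit between 1033 bp (RPL34) and 1587 bp (RPL13) downstream of the start.

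A strand-aware table of gene starts gave a start for 68 of the 85 genes and for 15812 protein-coding genes, and the outermost boundary on the start side served as the start. The strongest H3K27ac summit lay close to it and the strongest H3K4me3 summit further into the gene. Within 2500 bp of the start, the strongest H3K4me3 summit lay at a median of 551 bp downstream in the 65 members that had one, with quartiles at 340 and 807 bp. The median was 169 bp in 68 mitochondrial ribosomal protein genes and 344 bp in all 10203 protein-coding genes with such a summit. For H3K27ac the medians were 132 bp, 119.5 bp and 139 bp in the same groups.

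In 12 of the 65 members (18.5%) the strongest H3K4me3 summit lay more than 1000 bp downstream, against 14.3% of all genes with such a summit and 2 of 68 mitochondrial ribosomal protein genes. These 12 were RPL10A, RPL13, RPL15, RPL27, RPL34, RPL37A, RPL39, RPL7L1, RPS26, RPS27A, RPS3 and RPS7. Distances were taken from the outermost boundary. Some of the 12 also have a listed start inside the gene, among them RPL15 and RPS27A, where the H3K4me3 summit lay within 1000 bp of it. The share of 18.5% is near the background. For H3K27ac only RPL26L1 of 67 members had its strongest summit that far downstream, against 6.43% of all genes. The strongest H3K4me3 summit lay upstream of the start in 4 of 65 members (6.15%), against 19.3% of all genes. The strongest H3K27ac summit lay upstream in 21 of 67 members (31.3%), against 33.8% of all genes, which is near the background. Where both marks lay within 1000 bp of the start, H3K4me3 was further downstream than H3K27ac in 46 of 57 members (80.7%), against 65.9% of all genes. In RPS27 the offsets were 520 bp for H3K4me3 and 142 bp for H3K27ac. In RPS6, whose product is phosphorylated by the S6 kinases, the strongest summits of both marks lay upstream, at -278 and -280 bp. A second H3K4me3 summit of RPS6, 1273 bp downstream, scored 32.5, close to the 33.9 of the upstream one. RPL9 and RPS29 also had both strongest summits upstream.

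**Figure D2:**
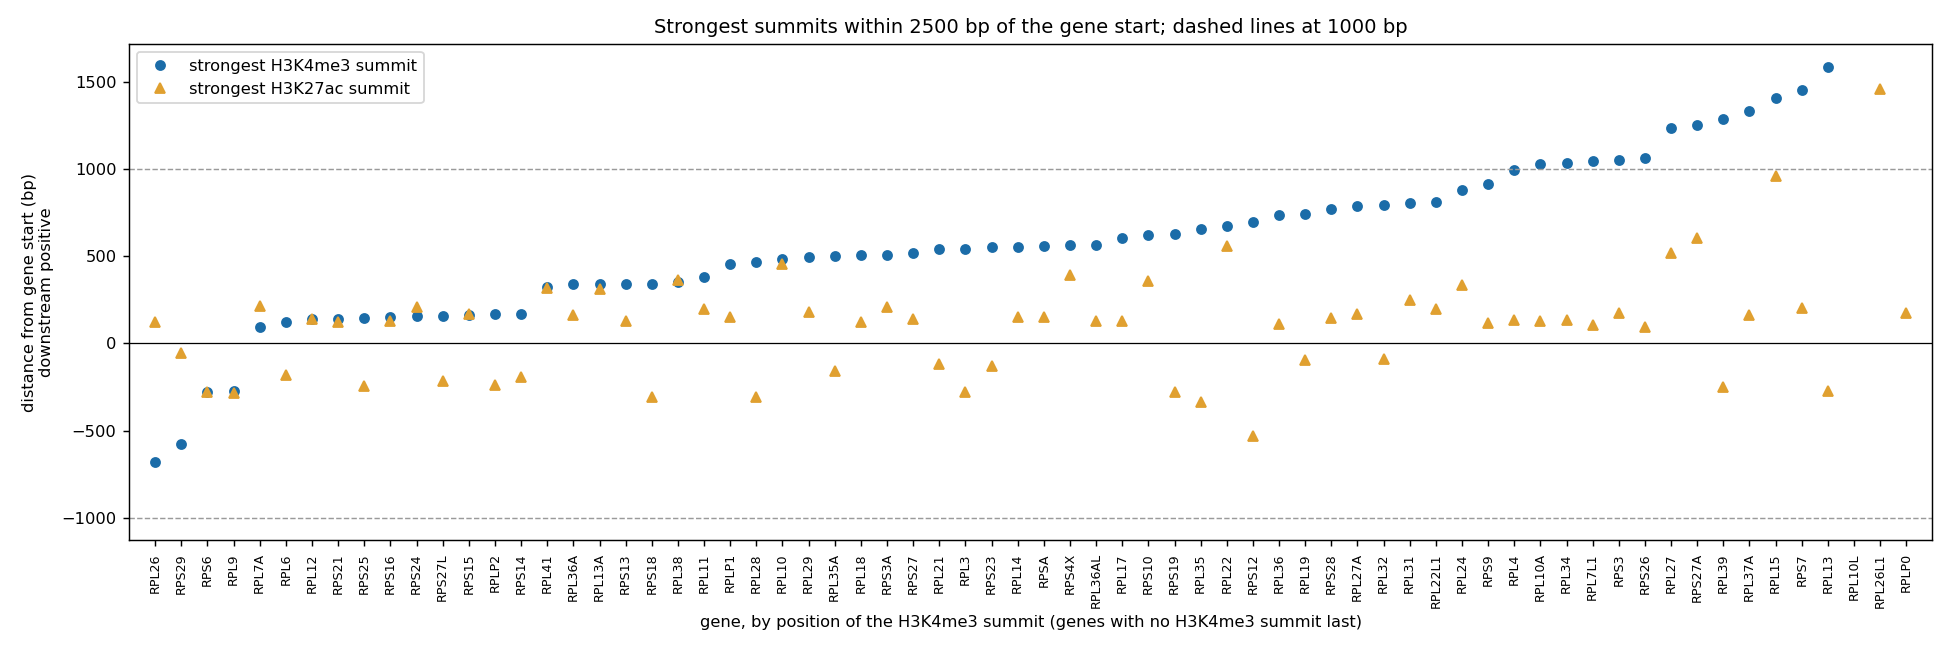
Distance in bp from the gene start (positive downstream) of the strongest H3K4me3 summit (circles) and the strongest H3K27ac summit (triangles) within 2500 bp, for each of 68 genes. The triangles mostly lie close to the start on either side, and the circles climb to 1587 bp in RPL13.

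The sides of the start that held summits were then counted. Within 500 bp, 20 of 68 (29.4%) had H3K27ac summits upstream and downstream, against 14.7% of all genes and 22 of 69 mitochondrial ribosomal protein genes (31.9%). A summit only downstream was found in 29 members (42.6%), against 23.6% of all genes, and only upstream in 16 (23.5%), against 10.7%. Each of the 3 classes was thus larger in members, in which H3K27ac near the start is more frequent. Of the genes with any H3K27ac summit within 500 bp, both sides were occupied in 20 of 65 members (30.8%), against 2319 of 7741 of all such genes (29.96%), which is near the background. For H3K4me3 both sides were occupied in 4 of 68 (5.88%), against 6.02% of all genes, which is near the background. Over the gene and 1000 bp around it, several H3K27ac summits were found in 62 of 85 members, against 45.0% of all genes. Several H3K4me3 summits were found in 49, against 45.2%. Of the genes with any H3K27ac summit there, several were found in 62 of 84 members, against 8979 of 12886 genes, which is near the background. For H3K4me3 these counts were 49 of 83 members, against 9034 of 13784 genes, a lower share in members.

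**Figure D3:**
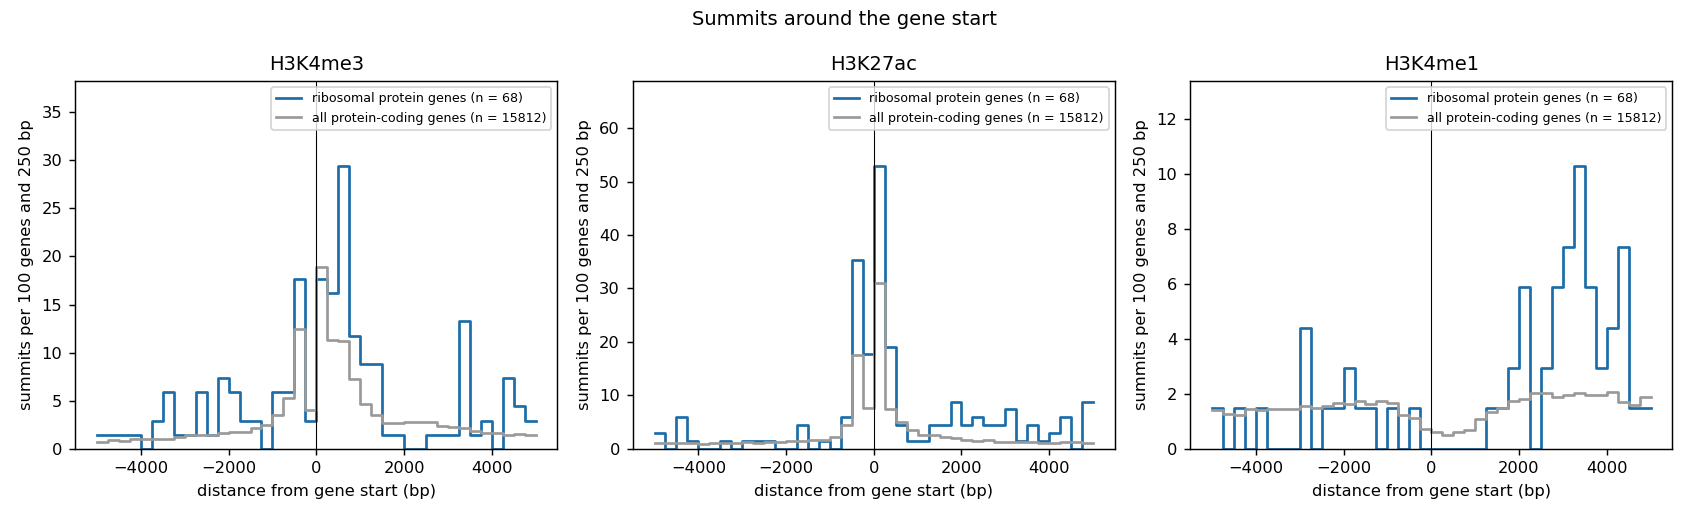
Summits per 100 genes in bins of 250 bp from 5000 bp upstream to 5000 bp downstream of the gene start, for ribosomal protein genes (n = 68) and all protein-coding genes (n = 15812). H3K27ac of the ribosomal protein genes peaks on both sides of the start, H3K4me3 peaks between 500 and 750 bp downstream, and H3K4me1 has no summit from 0 to 1250 bp downstream in these genes.

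H3K4me1 was found at the other end of more members than at the start. At the start side H3K27ac was found in 66 of 68 members, against 54.6% of all genes, and H3K4me3 in 57, against 57.3%. At either boundary H3K4me1 was present in 19 of 85 members (22.4%, 14.8 to 32.3), against 12.4% of all genes, always in main genes and with scores from 1.62 to 11.1. Over the whole gene body it was found in 33 of 85, against 40.4% of all genes. At the start it was found in 2 of 68 (2.94%, 0.810 to 10.1), RPS15 with 2.28 and RPS16 with 3.01, against 5.62% of all genes and 1 of 69 mitochondrial ribosomal protein genes (1.45%). The share of all genes lies inside the interval of the members. At the other end it was found in 15 of 68 (22.1%, 13.8 to 33.3), against 8.06% of all genes and 7 of 69 mitochondrial ribosomal protein genes (10.1%). The highest were RPL27 (11.1), RPLP0 (10.6), RPS4X (8.24), RPS16 (7.21), RPL18 (6.26), RPL35 (5.80) and RPS3 (5.13). The rest at that end, between 1.62 and 4.58, were RPL3, RPS27, RPL35A, RPS21, RPL38, RPL29, RPS26 and RPL26. RPL23A (4.80) and RPL8 (4.78) had a summit at a boundary but no start in the table.

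The other ends also held more H3K4me3 and H3K27ac summits than in genes at large. H3K4me3 lay there in 21 of 68 members (30.9%), against 6.15% of all genes, and H3K27ac in 17 of 68 (25%), against 7.65% of all. In mitochondrial ribosomal protein genes the counts were 8 of 69 (11.6%) for H3K4me3 and 11 of 69 (15.9%, 9.14 to 26.3) for H3K27ac. The H3K27ac share of members lies inside the latter interval. In RPS27 and RPL36 the H3K4me3 summit was the one already counted at the start. An H3K4me3 summit that lay only at the other end was found in 19 members, against 5.50% of all genes, and such an H3K27ac summit in 17, against 7.10%. In 13 of the 19 the best of these H3K4me3 summits at the other end scored below 10. The 6 with stronger ones were RPL41 (78.8), RPL4 (63.2), RPL7L1 (42.7), RPL26 (34.5), RPL27A (29.1) and RPL11 (15.2). At that end RPL41 meets ZC3H10, RPL4 meets SNAPC5, RPL7L1 meets PEX39 and RPL26 meets KRABD2, while RPL27A and RPL11 have no protein-coding neighbour within 1000 bp there. The members are short, with a median length of 5035 bp against 24190 bp over all protein-coding genes, so their other end lies near the start, and the part of length in these counts was not tested.

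**Figure D4:**
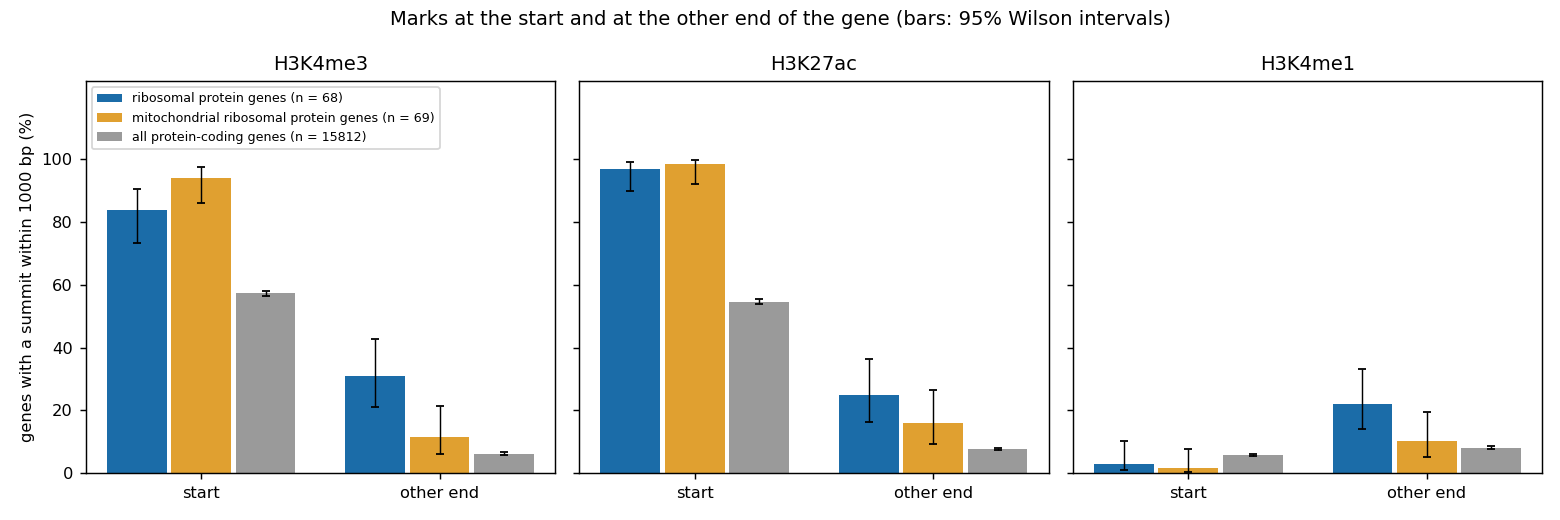
Share of genes (%) with a summit of each mark within 1000 bp of the start and of the other end, for ribosomal protein genes, mitochondrial ribosomal protein genes and all protein-coding genes, with 95% Wilson intervals. For H3K4me1 the ribosomal protein genes stand at 2.94% at the start and 22.1% at the other end.

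The genes were then described by the place of their product in the ribosome. Their pair counts stand beside a share of 47.4% over all protein-coding genes. RPL5 and RPL11 form a particle with 5S ribosomal RNA and can bind the p53 regulator MDM2. RPL5 had 54.4 for H3K4me3 and 40.2 for H3K27ac, and RPL11 had 72.6 and 21.9. RPL3, RPL8, RPL10 and RPL27A, whose products reach toward the peptidyl transferase centre, all had the pair, with H3K4me3 between 74.6 and 93.5 and H3K27ac between 46.4 and 81.9. Of the 8 genes of the peptide exit tunnel and its mouth, 7 had the pair, namely RPL4, RPL17, RPL19, RPL23A, RPL26, RPL31 and RPL35. The exception was RPL39, whose small protein lines the tunnel, with H3K27ac of 102 and its H3K4me3 summit of 83.6 inside the gene.

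Each of the next 2 lists of the small subunit has 4 genes, of which 3 had the pair, against 47.4% of all protein-coding genes. RPS2, RPS15 and RPS23, around the messenger entry and the decoding site, had H3K4me3 scores of 85.5, 69.3 and 39.3 and H3K27ac scores of 40.2, 30.1 and 37.3. RPS3, the other gene of that list, had H3K27ac of 60.5 and no H3K4me3 at a boundary. RPS14, RPS28 and RPSA, of the platform and messenger exit side, had 67.7, 66.1 and 51.8 for H3K4me3 and 59.0, 41.8 and 44.8 for H3K27ac. RPS26, the other gene of that side, had 3.97 and 87.1 without the pair at the same boundary. RPS6 had 33.9 and 34.4. Mutations of some members cause Diamond-Blackfan anaemia, a failure of red cell production. Of 9 such genes 8 had the pair, against 47.4% of all protein-coding genes. RPS19 had the highest scores, 87.4 and 105, and RPS26 was the exception through its H3K4me3 summit at 1060 bp. The pair was found in 40 of 46 large subunit genes and 28 of 31 small subunit genes, against 47.4% of all protein-coding genes. Large and small subunit genes had median H3K4me3 scores of 76.7 and 67.7 and median H3K27ac scores of 50.8 and 52.6. All 4 members on the X chromosome had both marks in the gene, with H3K4me3 at a boundary of 88.8 in RPS4X, 74.6 in RPL10, 71.6 in RPL36A and 5.71 in RPL39.

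Most paralog copies carried the marks, with exceptions. The pair was found in 68 of 77 main genes (88.3%, 79.3 to 93.7) and in 6 of 8 copies (75%, 40.9 to 92.9), so the intervals overlap. The share over all protein-coding genes, 47.4%, lies inside the interval of the copies. RPL22L1, set beside its parent RPL22, had 81.4 for H3K4me3 and 69.1 for H3K27ac, and RPL22 had 82.5 and 31.5. RPS27L, a p53-responsive copy of RPS27, had 71.3 and 41.8. RPL36AL had 66.1 and 41.8 at a boundary shared with MGAT2. RPL39L, a copy known for its expression in testis, had 27.9 and 16.7.

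Of the other copies, RPL7L1 had its pair at the end it shares with PEX39, and at its own start it had H3K27ac of 41.5 with H3K4me3 1044 bp downstream. RPL3L, a copy known from heart and skeletal muscle, had 69.3 for H3K4me3 and 7.53 for H3K27ac, at a boundary it shares with MSRB1. RPL26L1 (chr5:172954094-172969771) had no mark within 1000 bp of its outer boundaries, and its best summits inside the gene, 51.8 for H3K4me3 and 18.0 for H3K27ac, lay 5545 and 5113 bp inside its outer boundary. Its listed starts also lie inside the gene, and both marks were found within 1000 bp of one of them. RPL10L (chr14:46651010-46651781), an intronless copy known from testis, had no summit of any mark, and its nearest H3K4me3 summit lay 59294 bp away. H3K4me1 was found at no boundary of a copy.

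At the sequence of the start, the ribosomal protein genes shared the TOP tract. A cytosine at the annotated start followed by at least 4 pyrimidines was found at a listed start of 47 of 68 members (69.1%, 57.4 to 78.8), against 6.24% of all genes and 6 of 69 mitochondrial ribosomal protein genes (8.70%). The same 47 members are counted if any 5 pyrimidines may begin the transcript, against 6.72% of all genes. Of single starts, 47 of 84 in members matched, against 4.55% of 22155. The windows below are from RefSeq on GRCh38.p14, 5′ to 3′ on the strand of the gene, with 15 bases before and 15 from the start on. Capitals mark the TOP tract. The first 8 are main genes with high scores, or for RPS6 and RPLP0 with the patterns described above. RPS26 is shown as a main gene without a match.
RPS27, chr1:153990747-153990776, plus strand: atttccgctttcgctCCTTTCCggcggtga
RPS16, chr19:39435935-39435964, minus strand: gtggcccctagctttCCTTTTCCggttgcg
RPL13A, chr19:49487593-49487622, plus strand: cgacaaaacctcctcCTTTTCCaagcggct
RPS9, chr19:54200843-54200872, plus strand: gtggcgcttccgcgcCTCTTTCTCagtgac
RPLP2, chr11:809952-809981, plus strand: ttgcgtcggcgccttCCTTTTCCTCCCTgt
RPS19, chr19:41860240-41860269, plus strand: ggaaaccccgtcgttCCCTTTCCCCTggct
RPS6, chr9:19380222-19380251, minus strand: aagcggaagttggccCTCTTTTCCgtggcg
RPLP0, chr12:120201097-120201126, minus strand: gcgcgggcgcgaggcCCTTCTCTCgccagg
RPS26, chr12:56041903-56041932, plus strand: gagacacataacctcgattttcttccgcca

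Among the copies with a listed start, RPL22L1 alone had a match. The other windows show copies that lack it at the annotated start, which may lie some bases from the start used in these cells.
RPL22L1, chr3:170870181-170870210, minus strand: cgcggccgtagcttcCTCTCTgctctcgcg
RPS27L, chr15:63157463-63157492, minus strand: aagttgatgccgagcgcagatcgcttgcag
RPL36AL, chr14:49620612-49620641, minus strand: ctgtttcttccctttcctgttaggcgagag
RPL10L, chr14:46651767-46651796, minus strand: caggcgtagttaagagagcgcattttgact

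The marks were then compared by the tract. The pair was found in 47.4% of all protein-coding genes. Among members it was found in 41 of 47 with a TOP start and in 17 of 21 with listed starts and no match. Median best H3K4me3 scores were 73.6 and 67.7 in these groups, and median best H3K27ac scores were 52.4 and 43.3. H3K27ac was found at a boundary of all 47 members with the tract and of 19 of the 21 without, against 54.1% of all protein-coding genes. The 2 unmarked ones are the copies RPL10L and RPL26L1. The groups hold 1 and 5 copies, and among main genes alone the pair was found in 40 of 46 with the tract and in 14 of 16 without.

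Other motifs were searched on both strands from 250 bases before to 50 after each start. The ETS family core CCGGAAG was found in 24 of 68 members (35.3%), against 16.5% of all genes and 30 of 69 mitochondrial ribosomal protein genes (43.5%). A palindrome, TCTCG followed directly by its reverse complement, was found in 4 of 68 (5.88%, 2.31 to 14.2), RPS6, RPS19, RPL26 and RPL17, against 0.727% of all genes. In these 4 genes it began 52, 49, 49 and 65 bases before the start. The windows below run from 75 to 36 bases before the start, with the palindrome in capitals.
RPS6, chr9:19380272-19380311, minus strand: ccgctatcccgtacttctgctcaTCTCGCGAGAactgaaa
RPS19, chr19:41860180-41860219, plus strand: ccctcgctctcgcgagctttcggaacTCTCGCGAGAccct
RPL26, chr17:8383229-8383268, minus strand: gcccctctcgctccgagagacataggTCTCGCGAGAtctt
RPL17, chr18:49492501-49492540, minus strand: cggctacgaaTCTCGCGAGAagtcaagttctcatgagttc

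The YY1 motif AAGATGGC was found in 7 of 68 (10.3%), against 4.67% of all genes and 21 of 69 mitochondrial ribosomal protein genes (30.4%). TATAAA was found in 7 of 68 (10.3%), against 12.4% of all genes, and GGGCGG in 40 (58.8%), against 64.3%. CACGTG was found in 5 (7.35%), against 10.9%, and the NRF1 motif, GCGCA followed by its reverse complement, in 1, RPL10A, against 1.99%. These 4 shares are near the background. In RPLP0 and RPL10L the TATAAA motif began 27 bases before the start. The 250 bases upstream of RPLP0, which has H3K27ac on either side and no H3K4me3, are shown with that motif in capitals.
RPLP0, chr12:120201112-120201361, minus strand: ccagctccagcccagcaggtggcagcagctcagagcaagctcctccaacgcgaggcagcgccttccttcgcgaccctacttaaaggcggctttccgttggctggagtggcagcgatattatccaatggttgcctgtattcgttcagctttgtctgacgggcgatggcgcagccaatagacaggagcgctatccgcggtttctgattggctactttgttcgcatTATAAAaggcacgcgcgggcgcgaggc

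**Figure D5:**
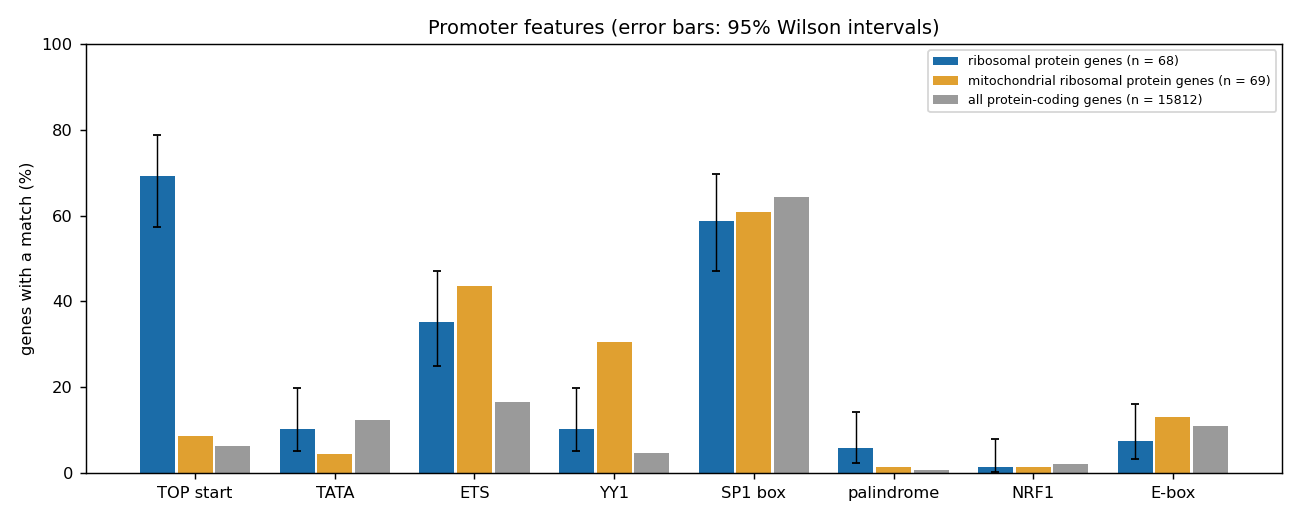
Share of genes (%) with a TOP start or a motif from 250 bases before to 50 after a listed start, for ribosomal protein genes, mitochondrial ribosomal protein genes and all protein-coding genes; palindrome stands for TCTCG with its reverse complement and SP1 box for GGGCGG. The TOP start, at 69.1%, 8.70% and 6.24%, shows the widest gap.

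Many members also host small nucleolar RNA (snoRNA) genes, whose products guide the modification of ribosomal RNA. Of the 85 genes 29 (34.1%) held 60 snoRNA genes, against 2.63% of all protein-coding genes holding any. RPL7A, RPL4, RPL23A, RPL13A and RPL3 were among those with 4 each. In the 29 hosts the best H3K4me3 score had a median of 75.2, beside 69.3 in the 56 other members, and the best H3K27ac score one of 56.9, beside 42.5. The pair was found in 26 of the hosts and in 48 of the others, against 47.4% of all protein-coding genes. All 8 paralog copies are among the others, and their part in these differences was not tested.

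Other genes of the pathway were largely marked as well. FAU and RACK1, which encode further ribosomal proteins, had H3K4me3 of 84.8 and 71.3 and H3K27ac of 24.1 and 49.8. The pair, found in 47.4% of all protein-coding genes, was found in 15 of 17 translation factor and other TOP messenger genes. It was found in 21 of 25 ribosome assembly genes, 9 of 12 RNA polymerase I genes and 9 of 9 regulators. Among the regulators were LARP1 (20.2 and 36.2) and MTOR (64.4 and 18.0). PABPC1 and EIF4A2, the exceptions of the first list, had H3K4me3 of 92.2 and 93.9 inside the gene. A TOP start was listed for 9 of the 11 genes of that list with a start, and for 2 of 20 assembly genes, against 6.24% of all genes. The list with the 11 genes was chosen to include TOP messenger genes, so its count is no independent result.

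The 77 mitochondrial ribosomal protein genes, whose products translate mitochondrial messages, served as a further comparison. The pair was found in 74 of 85 cytosolic genes (87.1%, 78.3 to 92.6) and in 73 of 77 mitochondrial ones (94.8%, 87.4 to 97.96), against 47.4% of all genes. The median best H3K4me3 score was 71.1 in the cytosolic class and 66.1 in the mitochondrial one. The median best H3K27ac score was 50.8 in the cytosolic class and 30.1 in the mitochondrial one.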

How the data were processed

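The authors deposited 1 list of peak summits for each of 3 marks, each line holding a position 1 bp wide, a name and a score on the −log10 scale (of either the q-value or the p-value). The tools named, per the submitters' processing notes, are MACS2, deepTools, Picard and Bowtie, with build hg38. Versions, settings and any control library are not given in the sources used. Read depth is unknown, and a list's length and scores depend on it. The lowest scores were 1.31, 1.30 and 1.33 for H3K4me3, H3K27ac and H3K4me1.

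Gene boundaries and starts came from RefSeq on GRCh38.p14, which shares hg38 coordinates. Summits off chromosomes 1 to 22 and X were left out (185, 273 and 61). Shares carry 95% Wilson intervals (SciPy 1.17.1). Assignment was tested on simulated data. Planned protein comparisons were not run. Genes named were the highest 10 and lowest 5 per mark, unmarked members, members with H3K4me1, copies, X-linked genes and role lists; some of these genes are counted but not reported by name here. Members, lists and motifs were chosen with earlier results of these data known. Windows of 500 and 2500 bp, the whole gene, scores of at least 10, subsets of members and listed starts were tried as alternatives.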

Additional observations from a re-analysis of the deposited data

How the results depend on the processing

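With no replicates, no library could be left out, and no paired analysis was possible because each mark had 1 library and no test was made. H3K4me3 at a boundary (91.8% of 85 members) depended on the window, at 56.5% for 500 bp (40.6% of all genes), 96.5% for 2500 bp (64.7% of all), 97.6% for the whole gene (69.0% of all) and 97.1% within 2500 bp of a listed start. The pair (87.1%) gave 51.8%, 96.5%, 97.6% and 97.1% under the same settings, against 31.1% and 55.8% of all genes at 500 and 2500 bp. Requiring H3K27ac within 500 bp of the H3K4me3 summit gave 69.4%. H3K27ac (97.6%) moved only to 100% in main genes alone. H3K4me1 (22.4%) gave 37.6% at 2500 bp (24.9% of all genes), 38.8% over the whole gene (40.4% of all), 2.35% with a score of at least 10 (1.13% of all) and 2.94% within 1000 bp of a listed start. The other shares stayed within the interval of the reported value, and over the whole gene the median best scores were 74.9 for H3K4me3 and 50.1 for H3K27ac. H3K4me1 summits score low, so their count depends on the threshold; with read depth unknown, an absent summit means only that none was called.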

Other observations

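By chromosome, members were most numerous on chromosome 19. All 12 there had the pair, against 47.4% of all protein-coding genes. Their best H3K4me3 scores ran from 66.1 to 111 with a median of 87.8, against a median of 48.8 over all marked genes of that chromosome. Their median H3K27ac score was 63.0, against 28.7 for the chromosome. On chromosome 8 the 4 members RPS20, RPL7, RPL30 and RPL8 had a median H3K27ac score of 88.7, against 34.5 for all marked genes there, and 3 of them had H3K4me3 at a boundary, from 93.5 to 114. On chromosome 2 only RPL31 and RPS7 of 4 members had the pair, since RPS27A and RPL37A had their strong H3K4me3 summits more than 1000 bp inside the gene.

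RPS19 had 10 H3K4me1 summits across its gene body and the 1000 bp around, the most of any member, with none at a boundary. The matches to AAGATGGC lay 11 to 28 bases downstream of the start in RPL24, RPL22L1, RPL35A, RPS3, RPL21 and RPL13A, while the match in RPS28 lay 142 bases upstream.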
